A study of Mus musculus with 4 samples.

Results

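The genes examined here are the Wnt ligands, their receptors, the inhibitors that bind either of them and the core signalling components, as measured by RNA-seq in perivascular adipose tissue (PVAT) around the mouse femoral artery. Genes were taken by symbol: those starting with Wnt, Fzd, Sfrp, Dkk, Rspo or Lgr followed by a digit, and 22 genes named singly, of which 16 had a row. This gave 34 of the 12661 genes of the deposited table. *Frzb*, *Wif1*, *Lef1*, *Rnf43*, *Ror1* and *Ror2* were not analysed here, nor was any gene that the authors' filter left out. All mice were wild type C57BL/6 females, 11 weeks old and ovariectomized. In the injury group (2 libraries) a wire had been inserted into the femoral artery, and in the sham group (2 libraries) the operation was done without injury. The tissue outside the artery was taken 48 h later in both groups. Nothing in the labels says whether each library came from 1 mouse or from several, so p-values measure the spread between these libraries only.

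WNT proteins are secreted, lipid-modified ligands that bind Frizzled receptors together with the coreceptors LRP5 and LRP6. Without ligand, a complex built on AXIN marks β-catenin for destruction, and with ligand β-catenin accumulates and acts with TCF/LEF factors in the nucleus. Pathway activity induces its own inhibitors, among them *Axin2*, *Nkd1*, *Apcdd1*, *Znrf3* and *Rnf43*, which are often read as a sign of activity. In adipose tissue, canonical Wnt signalling is known to hold back the differentiation of preadipocytes, and in the vessel wall it acts in smooth muscle and endothelial cells.

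The values are signed and lie around 0, and the scale, its base and the reference level of each gene are not given, so a difference is given in deposited units, a value of 0 does not mean absence, and levels cannot be compared between genes. How deeply each library was sequenced is unknown. A gene is said to have fallen or to be called where limma with Benjamini-Hochberg adjustment over all 12661 genes gave an adjusted p-value under 0.05. An exact two-sided permutation test cannot give less than p = 0.333 with 2 libraries in each group, so the adjusted p-values rest on the variance that limma shares between genes. In bulk tissue, fewer cells of a type and less RNA per cell cannot be told apart.

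After injury 6 of the 34 genes fell, namely *Nkd1*, *Apcdd1*, *Fzd6*, *Wnt9a*, *Tcf7l1* and *Lrp5*. That is 17.6% of the genes, while 3.67% of all genes in the table were called lower and 7.43% were called in either direction. None of the 34 was called higher by limma, against 3.76% of all genes. At an unadjusted limma p under 0.05 none of the 34 was higher and 14 of the 34 were lower. Over all genes, 1871 of 12661 were higher and 1868 of 12661 lower at that level (14.8% each). Both injury libraries lay below both sham libraries in 20 of the 34 genes (58.8%), against 30.3% of all genes. In no member did both injury libraries lie above both sham libraries, against 31.6% of all genes, and the groups were free of overlap in either direction in 61.9% of all genes. The mean was lower after injury in 30 genes, and the median difference of the 34 was -0.39, against 0.01 over all genes. Without sham replicate 1, or without sham replicate 2, no member was called, but over all genes these fits called 0 genes and 1 gene. Without injury replicate 1, *Apcdd1* alone was called, in a fit that called 284 genes in all. Without injury replicate 2 the number was 11, with 1790 genes called in all, and the genes added were *Wnt2*, *Fzd1*, *Fzd4*, *Sfrp4* and *Dkk3*.

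**Figure D1:**
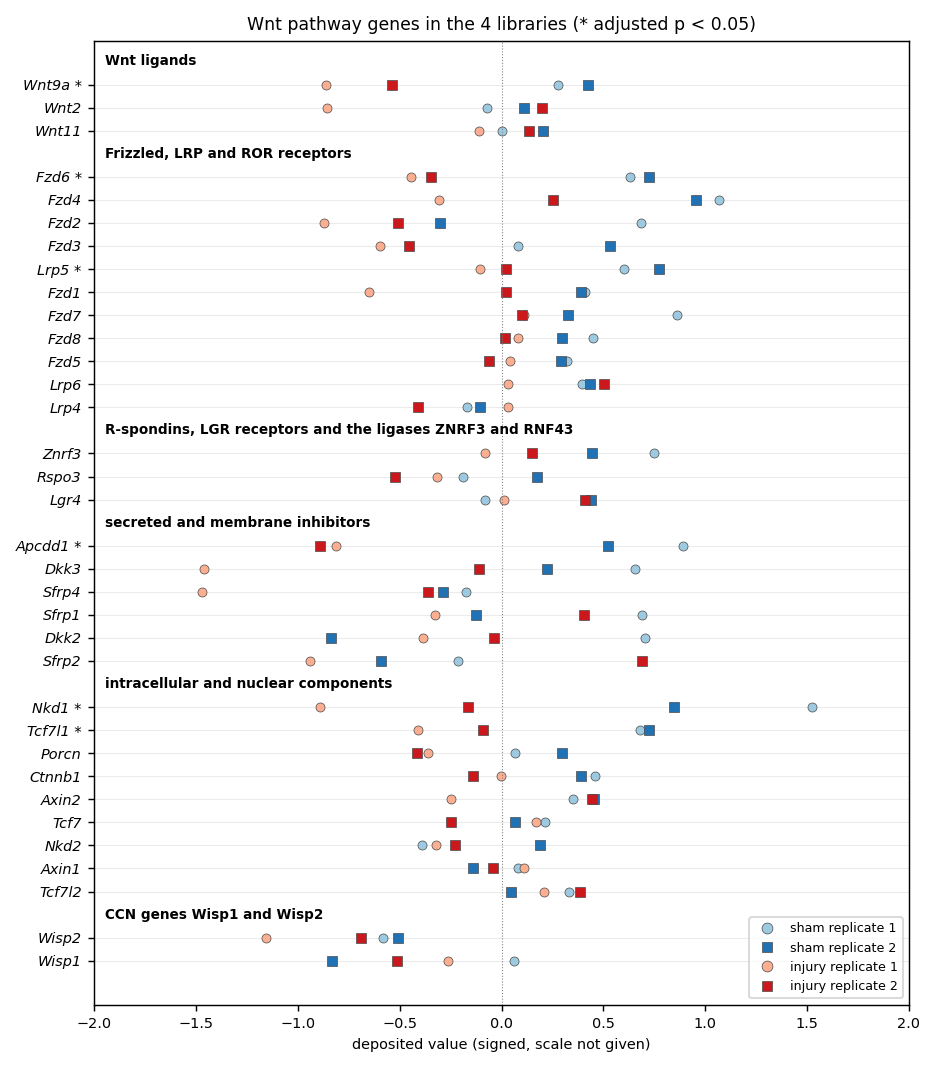
Deposited value (x axis, signed, scale not given) of each of the 34 genes in the 4 libraries, grouped by role. Blue points are sham libraries, red and orange points injury libraries, and an asterisk marks an adjusted p-value under 0.05. For *Fzd6* both injury libraries (-0.45 and -0.35) lie far to the left of both sham libraries (0.63 and 0.73), whereas for *Sfrp2* the injury libraries (-0.94 and 0.69) lie outside the sham libraries on both sides.

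Of the ligands, 3 were measured. *Wnt9a*, a ligand best known from joint and haematopoietic development, lies on chromosome 11 of mm9 from 59120430 to 59147054. It was at 0.27 and 0.43 in the sham libraries and at -0.86 and -0.54 in the injury libraries. The groups were well apart, and *Wnt9a* fell by 1.05 (standard error 0.17, adjusted p = 0.0327 from limma). *Wnt2*, a ligand expressed by mesenchymal cells of the lung and other organs, was at -0.07 and 0.11 after sham operation and at -0.86 and 0.20 after injury. Here the injury libraries disagreed, one lying below and one above both sham libraries, and the difference of -0.35 had a 95% interval from -1.22 to 0.53. *Wnt11*, a ligand that mostly acts without β-catenin, had 0.00 and 0.20 in the sham libraries against -0.11 and 0.13 in the injury libraries. Its groups overlapped, and the interval of the difference ran from -0.49 to 0.32.

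The Frizzled genes, which encode the membrane receptors of WNT proteins, were uniform in direction. In all 8 measured, *Fzd1* to *Fzd8*, the groups were apart with the injury values lower, against 30.3% of all genes. The difference was lowest for *Fzd6* at -1.07 and nearest to 0 for *Fzd5* at -0.32, with a median of -0.77. Without overlap, leaving out a single library cannot turn a difference positive, but it can change its size. With each library left out in turn, the difference ranged from -1.38 to -0.39 for *Fzd2* and from -1.05 to -0.38 for *Fzd1*. It ranged from -0.76 to -0.22 for *Fzd7* and from -1.12 to -1.02 for *Fzd6*. Of the 8, *Fzd6* alone was called (12.5%, against 3.67% of all genes). *Fzd6*, a receptor of planar cell polarity, lies on chromosome 15 from 38837879 to 38869732. Its values were 0.63 and 0.73 after sham operation and -0.45 and -0.35 after injury. Replicates lay close together in both groups, and *Fzd6* fell by 1.07 (standard error 0.14, adjusted p = 0.0285 from limma).

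*Fzd4*, the receptor of WNTs and of Norrin that endothelial cells use, missed the threshold narrowly. It was at 1.07 and 0.95 after sham operation and at -0.31 and 0.25 after injury, a difference of -1.04 (adjusted p = 0.0504 from limma). After quantile normalization of the columns *Fzd4* was called (adjusted p = 0.0498 from limma). The values of *Fzd3*, a receptor known from axon guidance, were 0.08 and 0.53 after sham operation and -0.60 and -0.46 after injury, a difference of -0.83 (adjusted p = 0.0613 from limma). *Fzd2* was spread widely in the sham group, at 0.69 and -0.30, and was at -0.87 and -0.51 after injury. The sham libraries of *Fzd2* differed from each other by 0.99, more than the difference of -0.88 between the groups. *Fzd1* was at 0.41 and 0.39 after sham operation and at -0.65 and 0.02 after injury, so that the injury libraries differed from each other by almost as much as the groups did. The smaller differences of *Fzd7* (-0.49), *Fzd8* (-0.33) and *Fzd5* (-0.32) had 95% intervals that included 0.

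Among the coreceptors only *Lrp5* fell. Of the 11 Frizzled and LRP genes together, 2 were called lower (18.2%, against 3.67% of all genes). *Lrp5*, on chromosome 19 from 3584825 to 3686564, was at 0.60 and 0.78 in the sham libraries and at -0.10 and 0.02 in the injury libraries. It fell by 0.73 (standard error 0.15, adjusted p = 0.0470 from limma), and the call was lost after quantile normalization (adjusted p = 0.0599 from limma) and with the columns scaled to 1 spread (adjusted p = 0.0567 from limma). *Lrp6*, which serves the same step, had 0.40 and 0.43 in the sham libraries against 0.03 and 0.50 in the injury libraries. The groups of *Lrp6* overlapped, with a 95% interval of the difference from -0.63 to 0.34. *Lrp4*, a related receptor that binds sclerostin and agrin, was at -0.17 and -0.11 after sham operation and at 0.03 and -0.41 after injury. Its groups overlapped too, with a difference of -0.05. Whether *Lrp5* and *Lrp6* differ in their response was not tested.

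**Figure D2:**
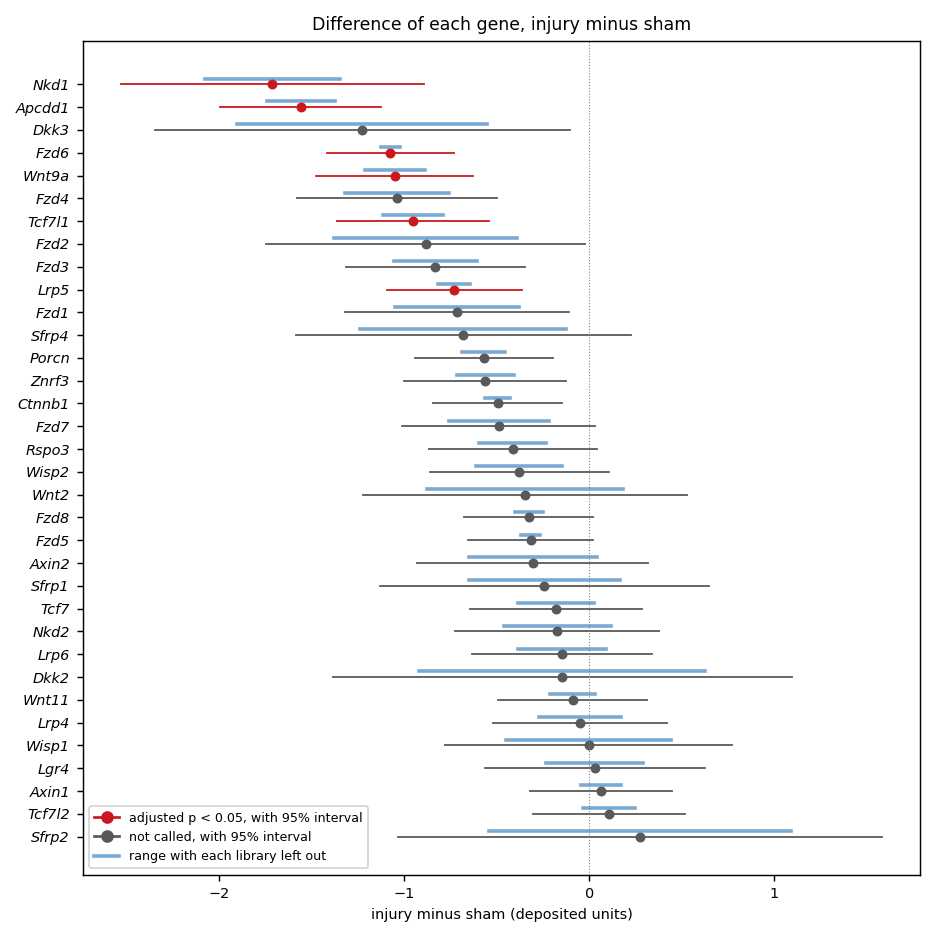
Difference of each gene between injury and sham (x axis, deposited units), ordered by size. Points with thin lines are limma estimates with 95% intervals, red where the adjusted p-value is under 0.05, and thick blue lines span the values with each library left out in turn. The estimates run from -1.71 for *Nkd1* to 0.28 for *Sfrp2*. The blue lines of the 6 red genes stay below 0, as they must where the groups do not overlap.

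R-spondins raise the number of Frizzled receptors at the cell surface by binding LGR receptors and removing the ligase ZNRF3. *Rspo3*, the only R-spondin gene measured, was at -0.19 and 0.17 after sham operation and at -0.32 and -0.52 after injury, a difference of -0.41 (adjusted p = 0.200 from limma). With each library left out in turn, the *Rspo3* difference ranged from -0.59 to -0.23. *Lgr4*, a receptor of R-spondins, was at -0.08 and 0.44 after sham operation and at 0.01 and 0.41 after injury. Both injury values of *Lgr4* lay within the range of the sham values. *Znrf3*, whose product sends Frizzled receptors for degradation, had 0.75 and 0.44 in the sham libraries against -0.08 and 0.15 in the injury libraries. Both injury libraries were lower, but the difference of -0.56 was not called (adjusted p = 0.108 from limma).

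Among 6 inhibitors outside the cell or at its surface, 1 fell (16.7%, against 3.67% of all genes), 3 were lower without overlap between groups (50% against 30.3%) and 5 had lower means (83.3% against 49.1%). *Apcdd1*, a membrane protein that binds WNT and LRP5 and is itself induced by the pathway, lies on chromosome 18 from 63081981 to 63112849. It was at 0.89 and 0.52 in the sham libraries and at -0.81 and -0.89 in the injury libraries. It fell by 1.56 (standard error 0.17, adjusted p = 0.0285 from limma), a difference that was rank 98 from the lowest among the 12661 genes. *Apcdd1* was the one member still called without injury replicate 1 (adjusted p = 0.0451 from limma). *Dkk3*, a divergent member of the Dickkopf family, was at 0.66 and 0.22 after sham operation and at -1.46 and -0.11 after injury. Its difference of -1.23 was not called (adjusted p = 0.145 from limma). Leaving out injury replicate 1 brought *Dkk3* to -0.55, and leaving out injury replicate 2 brought it to -1.90 (adjusted p = 0.0111 from limma). *Dkk2*, an antagonist that binds LRP coreceptors, was at 0.71 and -0.84 after sham operation, and both injury values of -0.39 and -0.04 lay inside that range.

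The genes of the secreted Frizzled-related proteins, which bind WNTs outside the cell, varied widely between the injury libraries. *Sfrp1* varied as widely between the sham libraries, with a gap of 0.81 against one of -0.73 between the injury libraries. *Sfrp4* was at -0.18 and -0.29 after sham operation and at -1.47 and -0.36 after injury, a difference of -0.68 (adjusted p = 0.275 from limma). The estimate for *Sfrp4* was -0.13 when injury replicate 1 was left out and -1.24 when injury replicate 2 was left out (adjusted p = 0.0142 from limma). *Sfrp2*, a gene of fibroblasts and adipocyte progenitors, was at -0.21 and -0.59 after sham operation and at -0.94 and 0.69 after injury. The gap of -1.63 between the injury libraries of *Sfrp2* was the widest of its kind among the 34 genes. *Sfrp1* was at 0.69 and -0.13 after sham operation and at -0.33 and 0.40 after injury. For *Sfrp1* and *Sfrp2* the 95% intervals, from -1.13 to 0.65 and from -1.03 to 1.58, cover sizeable differences in either direction.

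Inside the cell, *Nkd1* had the lowest difference of the 34 genes. NKD1 binds Dishevelled and dampens the pathway that induces it. The gene, on chromosome 8 from 91045243 to 91118786, was at 1.52 and 0.85 in the sham libraries and at -0.89 and -0.16 in the injury libraries. The groups were apart although replicates were spread in both, and *Nkd1* fell by 1.71 (standard error 0.33, adjusted p = 0.0441 from limma), rank 68 from the lowest of all genes. *Nkd2*, its paralogue, overlapped between groups, with a difference of -0.17. *Tcf7l1*, the TCF factor that mainly represses targets, lies on chromosome 6 from 72576372 to 72739248. It was at 0.68 and 0.73 after sham operation and at -0.41 and -0.09 after injury and fell by 0.95 (standard error 0.16, adjusted p = 0.0359 from limma). *Tcf7l2*, the TCF factor also linked to metabolism, was at 0.33 and 0.05 after sham operation and at 0.21 and 0.38 after injury. The other TCF genes overlapped between groups, *Tcf7l2* with a difference of 0.11 (95% interval from -0.30 to 0.52) and *Tcf7* with one of -0.18 (95% interval from -0.65 to 0.29).

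*Ctnnb1*, the β-catenin gene, was at 0.46 and 0.39 after sham operation and at -0.00 and -0.14 after injury. All injury values were lower, with a difference of -0.50 that was not called (adjusted p = 0.0871 from limma). *Porcn*, the enzyme that acylates WNT proteins before secretion, was at 0.06 and 0.30 after sham operation and at -0.36 and -0.42 after injury, a difference of -0.57 (adjusted p = 0.0760 from limma). *Axin1*, the constitutive scaffold of the destruction complex, had 0.08 and -0.14 in the sham libraries against 0.11 and -0.04 in the injury libraries. The groups of *Axin1* overlapped, with a 95% interval of the difference from -0.32 to 0.45. *Axin2*, the inducible scaffold, was at 0.35 and 0.45 after sham operation and at -0.25 and 0.44 after injury. One injury library of *Axin2* was lower and the other lay within the sham range, and the difference of -0.31 had a 95% interval from -0.93 to 0.32.

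The feedback genes differed among themselves in their results, and those differences between genes were not tested. *Nkd1* and *Apcdd1* fell by 1.71 and 1.56, *Znrf3* had a difference of -0.56 that was not called, and *Axin2* overlapped between the groups. The CCN genes *Wisp1* and *Wisp2* encode matricellular proteins that were first described as induced by WNT1. *Wisp1* was at 0.06 and -0.83 after sham operation and at -0.26 and -0.51 after injury, so that both injury values lay within the sham range. *Wisp2* was at -0.58 and -0.51 after sham operation and at -1.16 and -0.69 after injury, a difference of -0.38 (adjusted p = 0.259 from limma). With each library left out in turn, the *Wisp2* difference ranged from -0.61 to -0.14.

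Promoter sequences are shown for *Nkd1* and *Wnt9a*, which fell, for *Fzd4*, just above the threshold, and for *Axin2*, whose groups overlapped, to set the start regions of genes with different results side by side. Each is the 250 bases before the transcription start in RefSeq on GRCm38.p6, on the strand of the gene, 5′ to 3′, at chr8:88527383-88527632, chr11:59306680-59306929, chr7:89404116-89404365 and chr11:108920099-108920348, all on the plus strand. This build differs from the mm9 coordinates given above. Capitals mark the GC box GGGCGG on either strand.
Nkd1: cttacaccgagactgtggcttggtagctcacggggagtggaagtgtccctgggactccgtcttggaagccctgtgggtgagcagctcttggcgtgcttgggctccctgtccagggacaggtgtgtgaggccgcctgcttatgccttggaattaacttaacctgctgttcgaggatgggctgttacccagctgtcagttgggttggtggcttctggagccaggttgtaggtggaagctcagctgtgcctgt
Wnt9a: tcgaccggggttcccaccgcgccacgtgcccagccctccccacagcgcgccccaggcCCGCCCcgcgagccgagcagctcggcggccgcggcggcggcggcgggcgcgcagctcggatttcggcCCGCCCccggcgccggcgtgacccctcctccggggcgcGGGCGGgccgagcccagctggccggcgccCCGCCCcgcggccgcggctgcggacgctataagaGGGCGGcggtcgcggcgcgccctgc
Fzd4: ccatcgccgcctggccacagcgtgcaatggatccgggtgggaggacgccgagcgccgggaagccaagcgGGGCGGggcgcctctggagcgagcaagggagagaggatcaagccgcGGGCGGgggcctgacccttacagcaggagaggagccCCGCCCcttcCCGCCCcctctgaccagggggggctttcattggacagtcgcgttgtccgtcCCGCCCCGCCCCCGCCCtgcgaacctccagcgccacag
Axin2: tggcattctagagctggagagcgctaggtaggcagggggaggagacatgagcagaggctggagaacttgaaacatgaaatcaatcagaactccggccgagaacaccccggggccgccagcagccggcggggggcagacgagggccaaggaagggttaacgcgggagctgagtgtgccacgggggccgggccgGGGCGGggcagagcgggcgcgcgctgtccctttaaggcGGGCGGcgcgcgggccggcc

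The promoter of *Nkd1* held no GC box and 6 CpG dinucleotides. *Wnt9a* had 5 GC boxes and 48 CpG, *Fzd4* had 7 GC boxes, overlapping ones included, and 25 CpG, and *Axin2* had 2 GC boxes and 24 CpG. In the table of promoters 17 of the 34 genes had an entry, with 21 start sites. A GC box was present in 14 of these 21 windows (66.7%), in 56.8% of the 12242 windows of genes in the expression table and in 32.7% of all windows. The median CpG number was 20 for the 21 windows and 15 for those of the expression table. TCF/LEF motifs were searched on both strands as CTTTG followed by any pair of A and T. They occurred in 3 of the 21 windows (14.3%), those of *Fzd7*, *Wnt11* and *Tcf7l2*, in 10.5% of the windows of the expression table and in 14.8% of all 32851 windows. None of the 4 sequences printed held one, which says only that these letters are not in this window.

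The gap between the injury libraries had a larger median for the 34 genes than for all genes, without a test of this. Injury replicate 1 was below injury replicate 2 in 23 of the 34 genes, by a median of -0.24, against a median of -0.01 over all genes, of which 51.1% were lower in replicate 1. The size of this gap had a median of 0.32 over the 34 genes and of 0.19 over all genes. It exceeded 0.5 in 9 of the 34 genes and was larger than the difference between groups in 16. Neither count was made over all genes, so whether they are unusual is unknown. Between the sham libraries the size of the gap had a median of 0.21, against 0.15 over all genes, and 15 of 34 genes were lower in replicate 1. *Wnt2*, *Sfrp2*, *Sfrp4* and *Dkk3* had gaps over 1 between the injury libraries, from -1.06 to -1.63, each with the lower value in replicate 1.

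**Figure D3:**
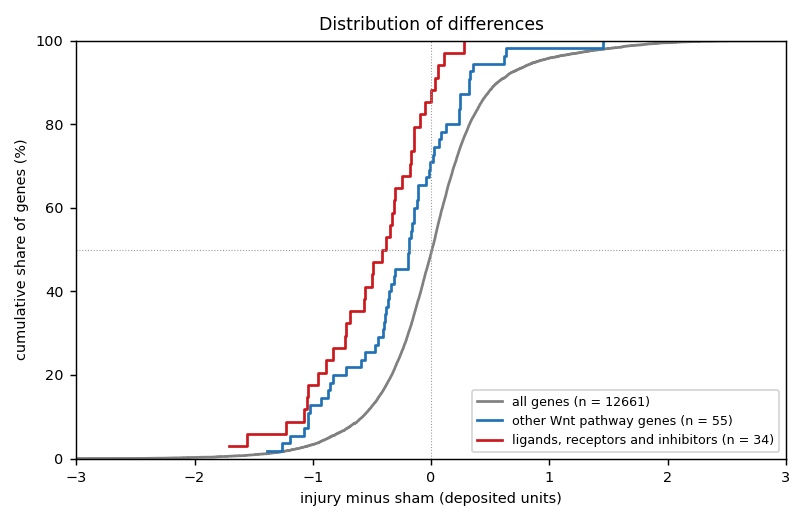
Cumulative share of genes (y axis, percent) at or below each difference between injury and sham (x axis, deposited units) for the 34 genes in red, the 55 other Wnt pathway genes in blue and all 12661 genes in grey. The red curve crosses 50% at -0.39, the blue at -0.19 and the grey at 0.01. The x axis is limited to differences from -3 to 3.

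Beyond the 34 genes, 55 further genes of the pathway were measured. Of these 5 fell (9.09%, against 3.67% of all genes) and 1 rose (1.82%, against 3.76% of all genes), and their median difference was -0.19. With 1 library left out, the number called lower ranged from 0 to 10. It was 0 without sham replicate 1, sham replicate 2 or injury replicate 1, and 10 without injury replicate 2, fits that called 0, 1, 284 and 1790 of all genes. Secretion and extracellular modulators (10 genes) all had lower means after injury, against 49.1% of all genes, and 2 of them fell (20%, against 3.67% of all genes). *Wls*, the carrier that WNT proteins need to leave the cell, was at 0.22 and 0.36 after sham operation and at -0.52 and -0.60 after injury. *Wls* fell by 0.85 (standard error 0.14, adjusted p = 0.0330 from limma). *Reck*, a membrane protein that presents WNT7 to its receptor complex, fell by 1.03 (adjusted p = 0.0461 from limma), from 0.84 and 0.46 to -0.54 and -0.21.

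In the group of planar cell polarity genes and non-canonical receptors, both injury libraries lay below both sham libraries in 9 of 9 genes, against 30.3% of all genes, and 1 was called (11.1%, against 3.67% of all genes). *Celsr1*, a cadherin of planar cell polarity, fell by 0.93 (adjusted p = 0.0368 from limma), from 0.73 and 0.44 to -0.28 and -0.40. In the destruction complex and Dishevelled group (19 genes), 6 genes were lower and 5 higher without overlap between groups (31.6% and 26.3%), shares near those of all genes (30.3% and 31.6%), and 1 was called lower (5.26%, against 3.67% of all genes). That gene was *Dact1*, a Dishevelled-binding regulator, which fell by 1.26 (adjusted p = 0.0463 from limma) from 0.99 and 0.30 to -0.63 and -0.59. Nuclear cofactors (11 genes) had a median difference of -0.04, and 1, *Tle1*, was called lower (9.09%, against 3.67% of all genes), while 4 were lower and 2 higher without overlap (36.4% and 18.2%, against 30.3% and 31.6% of all genes). Of 6 genes widely described as canonical targets, 5 had higher means, against 6450 of all 12661 genes, and 1 was called higher (16.7%, against 3.76% of all genes). *Cd44*, a hyaluronan receptor that is also abundant on leukocytes, rose by 1.46 (adjusted p = 0.0318 from limma), from -1.25 and -0.77 to 0.65 and 0.25.

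Markers of several cell types were lower in the same libraries as the Wnt genes, and their counts called lower stand against 3.67% of all genes. The smooth muscle genes (5 measured) all had lower means, 4 of them called, with a median of -2.18, and the library medians were 1.74 and 1.05 after sham operation and -1.55 and -0.21 after injury. Endothelial markers had lower means in 6 of 6, with 2 called, *Pecam1* and *Vwf*, and a median of -0.63. Of 9 fibroblast and adipose progenitor markers 8 had lower means and 3 fell, *Dcn*, *Lum* and *Cd34*, while *Pdgfra* differed by 0.41, and the median was -0.59. Skeletal muscle markers (5 of 5 with lower means, median -0.74) and Schwann cell markers (4 of 5, median -0.51) were lower as well. The median of 7 pan-adipocyte markers was -0.29, with 4 means lower and 3 higher, and *Plin1* alone was called. All 7 had a row in the table.

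Macrophage and neutrophil markers had medians of 1.27 and 1.88, and brown adipocyte markers one of 0.87. All means of these lists were higher, and 3 macrophage, 1 neutrophil and 3 brown adipocyte genes were called higher, against 3.76% of all genes. Proliferation markers overlapped in 4 of 4 genes, with a median of 0.21. *Cdh1* was the one epithelial marker measured, at 2.23 and 0.26 after sham operation and 0.24 and -0.83 after injury, and none of the 5 lymphocyte markers was analysed here. Injury replicate 1 had the lower smooth muscle, endothelial and fibroblast medians of the injury libraries. Its Schwann cell (-0.57 against -0.23), pan-adipocyte (-0.12 against 0.30) and brown adipocyte (1.94 against 1.98) medians were lower too. Its macrophage, neutrophil, skeletal muscle and proliferation medians were the higher ones, as was its *Cdh1* value. The part of these cell types in the lower values of the Wnt genes was not tested.

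**Figure D4:**
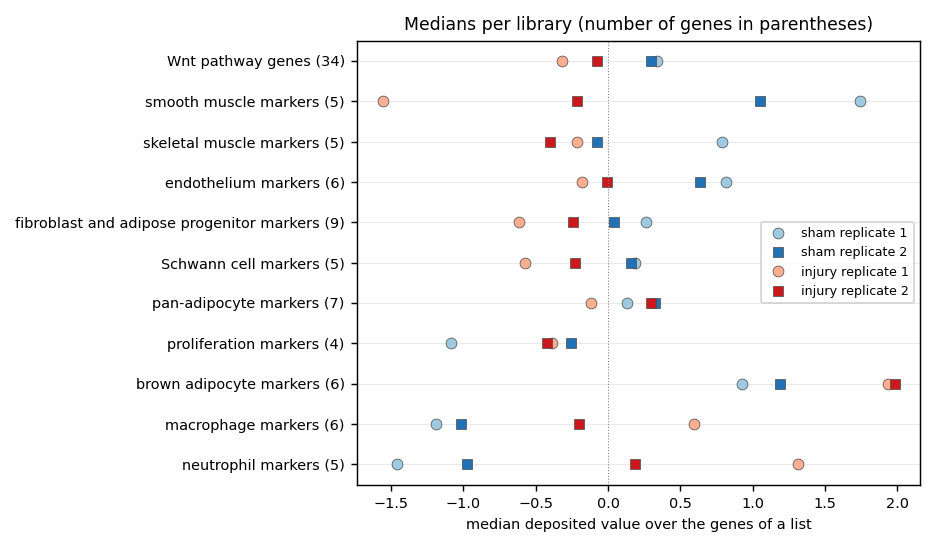
Median deposited value (x axis) over the genes of each list in the 4 libraries, with the number of genes in parentheses. The 34 Wnt pathway genes have medians of 0.34 and 0.29 (sham), -0.32 (injury replicate 1) and -0.08 (injury replicate 2). The markers of smooth muscle, endothelium, fibroblasts and Schwann cells lie in the same order, and those of macrophages and neutrophils in the opposite order. Skeletal muscle, pan-adipocyte, brown adipocyte and proliferation markers lie in neither order.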

How the data were processed

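RNA-seq of the tissue around the femoral artery was analysed in 2 sham and 2 injury libraries. Per the methods and the submitters' processing notes, reads were checked with FastQC 0.11.8, trimmed with Cutadapt 1.18 and Trimmomatic 0.39, aligned to mm9 with STAR 2.6.0a, counted per gene with featureCounts and compared with DESeq2 1.28.0. The deposited values are a signed score around 0, and the 4 libraries of a gene do not in general average to 0. The step by which the authors made this score, its scale and reference level and the filter that left 12661 genes are not given in the sources used here, and the depth is unknown.

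Groups were compared with limma 3.58.1 in R 4.3.3 (lmFit and eBayes, group as the only term, 3.48 prior degrees of freedom added to 2), adjusted by Benjamini-Hochberg over all genes at 0.05. The test was tested on simulated data. Intervals are 95% limma intervals. Alternatives were a replicate block, each library left out, quantile normalization, columns scaled to 1 spread, a robust variance prior, a threshold of 0.1 and a minimum difference of 1. The members and gene lists were chosen with earlier results of these data known. Values per library were to be given for called members and, in each role, for the 3 largest and 2 smallest differences, and of the other pathway list for up to 5 called genes with the largest differences. Other members were added after their values were seen, and *Tle1* was named to complete a count. Coordinates come from GENCODE on NCBIM37 (mm9), which matched all 34 members. Promoters come from RefSeq on GRCm38.p6, and only windows without more than 30 bases of a GENCODE transcript were printed. Figures were drawn with matplotlib 3.10.9.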

Additional observations from a re-analysis of the deposited data

How the results depend on the processing

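In the fits to all 4 libraries, the replicate block and the robust variance prior leave each difference as it is by construction. They can move only the calls. After quantile normalization and with columns scaled to 1 spread no member changed direction, and 30 of 34 stayed lower. The number of members called lower was 6, and 4 with the replicate block, 6 after quantile normalization, 5 with scaled columns, 6 with the robust prior, 4 with a minimum difference of 1 and 10 at an adjusted p-value under 0.1. None was called higher in any of these. The other pathway genes called lower numbered 5, and 1 with the replicate block, 6 after quantile normalization, 6 with scaled columns, 5 with the robust prior, 2 with a minimum difference of 1 and 9 at the threshold of 0.1. The replicate numbers are not said to mark a shared animal or day, and the deviations of same-numbered libraries had a correlation of -0.09 over genes, so the block is not read as a pairing. Over all genes 941 were called, and 684 with the replicate block, 1061 after quantile normalization, 1128 with scaled columns and 861 with the robust prior. No count over all genes was made at the threshold of 0.1 or with the minimum difference of 1. The counts of pathway genes there cannot be set against a share of all genes. With the block *Lrp5* and *Nkd1* were not called (adjusted p = 0.0649 and 0.0611 from limma).

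With each library left out, the members called lower ranged from 0 to 11 and the other pathway genes from 0 to 10 lower and from 0 to 2 higher. In these fits 1 residual degree of freedom remained and the lone library was assumed to vary like the other group. Differences that changed sign in at least 1 of them ranged from -0.88 to 0.18 for *Wnt2*, -0.21 to 0.032 for *Wnt11*, -0.27 to 0.17 for *Lrp4*, -0.38 to 0.0895 for *Lrp6*, -0.23 to 0.29 for *Lgr4*, -0.54 to 1.09 for *Sfrp2*, -0.65 to 0.17 for *Sfrp1*, -0.92 to 0.63 for *Dkk2*, -0.0464 to 0.17 for *Axin1*, -0.65 to 0.0406 for *Axin2*, -0.46 to 0.12 for *Nkd2*, -0.39 to 0.0281 for *Tcf7*, -0.0334 to 0.25 for *Tcf7l2* and -0.45 to 0.44 for *Wisp1*. Marker medians ranged from -1.0015 to -0.27 for fibroblasts, -2.81 to -1.68 for smooth muscle, -0.80 to -0.56 for endothelium, -0.51 to -0.0330 for adipocytes, 0.76 to 1.05 for brown adipocytes, 0.92 to 1.66 for macrophages, 1.40 to 2.58 for neutrophils, -1.12 to -0.27 for skeletal muscle, -0.65 to -0.24 for Schwann cells and -2.53 to -0.56 for the epithelial gene, and from -0.15 to 0.59, with a change of sign, for proliferation. The cause of these shifts was not tested.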
